A study of Mus musculus with 8 samples.

Results

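Pdgfra, Dcn, Lum, Tcf21, Nr2f2, Ptch1, Gli1 and Vim are genes used to mark the interstitial stroma of the testis, the connective tissue that lies between the seminiferous tubules. They were chosen by name, as 8 of the 54087 gene entries in the count files, and all 8 were found and were among the 23353 genes with enough counts to be tested. RNA came from whole testes of C57BL/6 male mice in 4 groups of 2 libraries each: Dnmt3A KO/KO at 25 dpp (days post partum), Dnmt3A WT/WT at 25 dpp, Dnmt3A KO/KO at 19 dpp and Dnmt3A WT/WT at 19 dpp, called KO and WT below. The study compared mutant with wildtype testis at each age. Dnmt3A encodes a DNA methyltransferase that sets new methylation on cytosines. The labels give neither the deleted part of the gene nor the cells in which it was deleted, and they do not say whether the 2 libraries of a group came from separate animals, so p-values measure the spread between libraries, which may be technical.

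Interstitial stromal cells hold the progenitors of Leydig cells, the source of testosterone, and make the collagen and proteoglycan matrix around the tubules. Sertoli cells inside the tubules secrete Desert hedgehog (DHH), which binds the receptor PTCH1 on interstitial cells, frees Smoothened (SMO) and lets GLI factors act, and Ptch1 and Gli1 are themselves targets of the pathway. Platelet-derived growth factors from the tubules act on the receptor PDGFRA of interstitial cells. Vim is also made by Sertoli cells, and Nr2f2 and Pdgfra are also expressed by other testis cells, so none of them marks stroma alone.

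The promoter windows of the members differ widely in CpG content. RefSeq promoter windows on GRCm38.p6 were matched for 5 of the 8 (Pdgfra, Tcf21, Nr2f2, Ptch1 and Vim); Dcn, Lum and Gli1 had no entry. A window is set on the start site of the RefSeq table. For Ptch1, Tcf21 and Vim that site lies inside the gene as GENCODE draws it, downstream of the outermost start given with the coordinates of these genes. The 3 windows of 250 bases before the start that are shown span the CpG range of the members, with every CG dinucleotide, the substrate of DNA methyltransferases, in capitals.
Ptch1 (chr13:63565736-63565985, minus strand): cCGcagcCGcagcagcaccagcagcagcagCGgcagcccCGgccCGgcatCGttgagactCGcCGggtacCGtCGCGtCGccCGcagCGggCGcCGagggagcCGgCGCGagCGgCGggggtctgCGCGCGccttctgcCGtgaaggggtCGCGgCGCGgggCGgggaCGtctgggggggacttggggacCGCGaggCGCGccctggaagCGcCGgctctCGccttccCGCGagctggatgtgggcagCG
Vim (chr2:13574061-13574310, plus strand): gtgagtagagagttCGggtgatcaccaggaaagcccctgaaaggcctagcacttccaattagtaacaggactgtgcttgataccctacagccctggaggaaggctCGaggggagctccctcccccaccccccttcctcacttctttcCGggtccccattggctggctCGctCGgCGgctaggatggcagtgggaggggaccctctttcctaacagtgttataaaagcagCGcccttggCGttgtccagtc
Nr2f2 (chr7:70366747-70366996, minus strand): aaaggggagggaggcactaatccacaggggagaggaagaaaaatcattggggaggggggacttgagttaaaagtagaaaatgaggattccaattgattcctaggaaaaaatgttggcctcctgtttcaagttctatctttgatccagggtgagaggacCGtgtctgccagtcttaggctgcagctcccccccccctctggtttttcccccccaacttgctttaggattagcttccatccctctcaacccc

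The Ptch1 window held 41 CG dinucleotides, more than 98.9% of the 32851 promoter windows, and 78.4% G or C. Vim held 8, Tcf21 held 5, Pdgfra held 4 and Nr2f2 held 1, against a median of 6 over all windows. The Vim window had the letters TATAAA 32 bases before the start, which 12.4% of all windows hold on either strand. Both Vim and Nr2f2 had CCAAT at 2 places, and 33.8% of windows hold it. The GLI letters GACCACCCA were in none of the 5 windows on either strand, and 0.225% of all windows hold them.

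Gene totals ran between 22515812 and 50445334 counts per library. Dnmt3a itself, counted over the whole gene, had 76.9 and 67.2 CPM (counts scaled to library size) in KO and 48.7 and 70.0 CPM in WT at 25 dpp, and 114 and 112 CPM in KO and 147 and 141 CPM in WT at 19 dpp; it was not called at either age (edgeR adjusted p = 0.204 at 25 dpp and 0.201 at 19 dpp). Such a count can include parts outside a deletion and does not check the genotype labels. The share of the RNA from germ cell markers differed between the genotypes. At 25 dpp 12 summed spermatid markers had 9.47 to 13.1 CPM in KO and 584 to 3415 CPM in WT. At 19 dpp 12 spermatocyte markers had 274 to 484 CPM in KO and 1848 to 3070 CPM in WT. The 26 Sertoli markers summed to 9866 to 11500 CPM in KO and 3588 to 4486 CPM in WT at 25 dpp, and to 12450 to 13740 CPM in KO and 7009 to 7764 CPM in WT at 19 dpp, and no Sertoli marker was without counts. Clu, the most abundant of them, had 4944 and 3925 CPM in KO and 1132 and 1502 CPM in WT at 25 dpp. Clu thus held a larger part of the Sertoli sum in KO than in WT at that age, and the sum was not taken without it.

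Most of the stromal genes took a larger share of the RNA in KO testis, but none was called higher when libraries were scaled to Sertoli markers. At 25 dpp 7 of the 8 were called higher in KO than in WT (edgeR quasi-likelihood test, Benjamini-Hochberg adjusted p under 0.05), while 26.1% of all tested genes were called higher, 37.4% lower and 63.5% in either direction, with folds between 1.66 for Tcf21 and Nr2f2 and 3.22 for Dcn. At 19 dpp 6 of the 8 were called higher in KO, while 8.8% of all tested genes were called higher, 13.2% lower and 22% in either direction, with folds between 1.60 for Nr2f2 and 2.18 for Vim. Of all genes called, the share that was higher in KO was 41.1% at 25 dpp, against 55.9% with total counts, 1.64% with Sertoli markers and 54.8% with Leydig, myoid and endothelial markers as scaling. At 19 dpp it was 39.9%, against 27.3%, 0.953% and 0.679% in the same order of scalings. Lum stood apart: it was lower in both KO libraries than in both WT libraries at 25 dpp and higher in both KO libraries at 19 dpp, but it was called at neither age. In whole testis, more stromal cells, or more RNA per stromal cell, and fewer other cells cannot be told apart, and 24 of 26 Sertoli markers at 25 dpp and 18 of 26 at 19 dpp were also called higher in KO; the part of the other cells in these results was not tested.

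**Figure D1:**
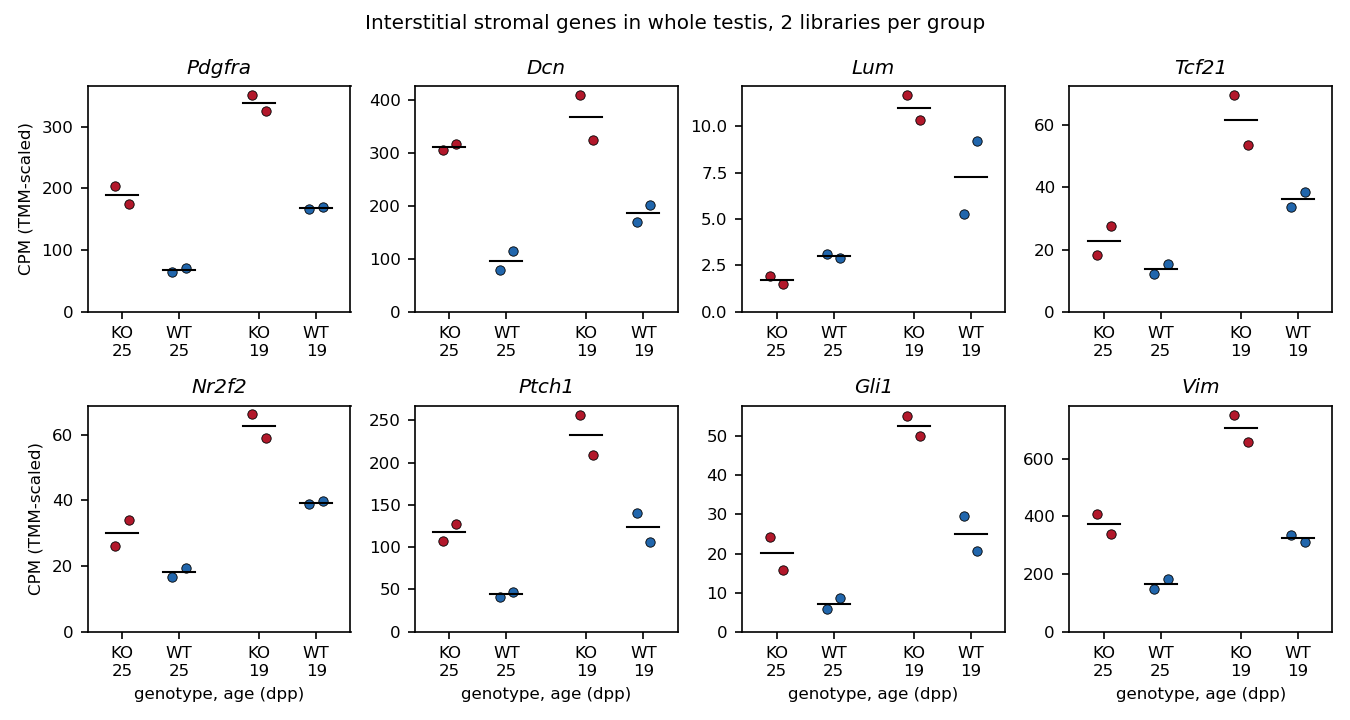
CPM of each of the 8 genes (vertical axes, linear from 0) in every library, KO in red and WT in blue, at 25 and 19 dpp; the bar is the mean of the 2 libraries of a group. The KO points lie above the WT points at both ages except for Lum at 25 dpp, where 1.92 and 1.49 CPM in KO lie under 3.11 and 2.90 CPM in WT.

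Pdgfra, the growth factor receptor of interstitial cells (chromosome 5, 75152292 to 75198215, plus strand, GRCm38), had 204 and 175 CPM in KO and 64.5 and 71.4 CPM in WT at 25 dpp. The 19 dpp values were 352 and 326 CPM in KO and 167 and 169.7 CPM in WT. No KO library overlapped a WT library of its age, and both KO libraries at 25 dpp lay just above the WT libraries at 19 dpp. Relative to WT, KO had a log2 fold change of 1.48 ± 0.13 (SE; edgeR adjusted p = 0.000308) at 25 dpp and 1.01 ± 0.13 (edgeR adjusted p = 0.00714) at 19 dpp. It was the member with the smallest SE at both ages. Exons of Pdgfra overlap those of Gm42802 and Gm42803 on the opposite strand and of Mir7025 on the same strand.

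Dcn encodes decorin, a small leucine-rich proteoglycan that binds collagen fibrils and transforming growth factor beta (chromosome 10, 97479609 to 97518143, plus strand). It had 306 and 317 CPM in KO and 78.5 and 115 CPM in WT at 25 dpp, and 409.8 and 325 CPM in KO and 170.3 and 203 CPM in WT at 19 dpp. All KO libraries of Dcn, at either age, lay above all WT libraries. The log2 fold change was 1.69 ± 0.21 (edgeR adjusted p = 0.000591) at 25 dpp, the highest of the 8 members, and 0.98 ± 0.21 (edgeR adjusted p = 0.0162) at 19 dpp.

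Lum, which encodes lumican, a related keratan sulfate proteoglycan that shapes collagen fibrils, is the next protein-coding gene after Dcn on the same strand (chromosome 10, 97565128 to 97572703), 46985 bases away. Its counts were the lowest of the 8, with 71 and 42 counts in KO and 114 and 99 in WT at 25 dpp, equal to 1.92 and 1.49 CPM in KO and 3.11 and 2.90 CPM in WT. At 19 dpp it had 11.7 and 10.3 CPM in KO and 5.27 and 9.23 CPM in WT. The groups did not overlap at either age but lay in opposite order, and the 2 WT libraries at 19 dpp were far apart. The log2 fold change was -0.81 ± 0.34 (95% confidence interval -1.75 to 0.13, edgeR adjusted p = 0.0665) at 25 dpp and 0.60 ± 0.32 (-0.29 to 1.49, edgeR adjusted p = 0.22) at 19 dpp. The call at 25 dpp depended on the method: with DESeq2 size factors in edgeR the value was -0.91 with an adjusted p of 0.0463.

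Tcf21 encodes a basic helix-loop-helix factor of interstitial progenitor cells (chromosome 10, 22817281 to 22820174, minus strand). It had 18.1 and 27.6 CPM in KO and 12.2 and 15.4 CPM in WT at 25 dpp, and 69.6 and 53.4 CPM in KO and 33.7 and 38.55 CPM in WT at 19 dpp. The lower KO library was close to the higher WT library at 25 dpp. The log2 fold change was 0.73 ± 0.25 (edgeR adjusted p = 0.0338) at 25 dpp and 0.77 ± 0.25 (0.08 to 1.45, edgeR adjusted p = 0.0619, not called) at 19 dpp. Without KO replicate 2 the value at 25 dpp was 0.39 with an adjusted p of 0.226.

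Nr2f2, the orphan nuclear receptor COUP-TFII of stromal progenitors (chromosome 7, 70351944 to 70366735, minus strand), had 26.0 and 34.2 CPM in KO and 16.7 and 19.5 CPM in WT at 25 dpp. The 19 dpp libraries of Nr2f2 had 66.3 and 59.15 CPM in KO and 38.8 and 39.7 CPM in WT. The KO libraries were the higher ones at each age, with the narrowest gap at 25 dpp. KO exceeded WT by a log2 fold change of 0.73 ± 0.18 (edgeR adjusted p = 0.00858) at 25 dpp and 0.68 ± 0.18 (edgeR adjusted p = 0.0333) at 19 dpp. Leaving out KO replicate 2 at 25 dpp gave 0.52 with an adjusted p of 0.0577. Its exons overlap those of B130024G19Rik on the opposite strand, and the strand setting of the counting is not given in the sources used here.

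Ptch1, the Hedgehog receptor (chromosome 13, 63508328 to 63573598, minus strand), had 108 and 127.5 CPM in KO and 41.0 and 47.1 CPM in WT at 25 dpp. Ptch1 at 19 dpp had 256 and 209 CPM in KO and 141 and 106 CPM in WT. The KO libraries were all higher at their age, and at 19 dpp the libraries spread more within a genotype. Ptch1 had a log2 fold change of 1.42 ± 0.19 (edgeR adjusted p = 0.000739) at 25 dpp and 0.91 ± 0.19 (edgeR adjusted p = 0.0148) at 19 dpp.

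Gli1, the zinc finger factor that acts at the end of the Hedgehog pathway (chromosome 10, 127329882 to 127341974, minus strand), had 24.3 and 15.9 CPM in KO and 5.76 and 8.52 CPM in WT at 25 dpp. At 19 dpp it had 55.3 and 50.1 CPM in KO and 29.5 and 20.6 CPM in WT. The 2 libraries of a group lay farther apart than for Ptch1 in KO at 25 dpp, but no genotypes overlapped. Gli1 had a log2 fold change of 1.49 ± 0.30 (edgeR adjusted p = 0.00345) at 25 dpp and 1.07 ± 0.29 (edgeR adjusted p = 0.0357) at 19 dpp. An exon of Gli1 overlaps an exon of the protein-coding gene Arhgap9 on the opposite strand, within 127329882 to 127329943. Gli1 exons also overlap those of Gm47200 on the opposite strand. How reads at these places were assigned is not known.

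Vim, the intermediate filament of mesenchymal and Sertoli cells (chromosome 2, 13573927 to 13582826, plus strand), had 409.6 and 340.3 CPM in KO and 149.6 and 184 CPM in WT at 25 dpp. For Vim at 19 dpp these were 753 and 657 CPM in KO and 335 and 311 CPM in WT. Both KO libraries at 25 dpp were above both WT libraries at 19 dpp. The log2 fold change was 1.17 ± 0.16 (edgeR adjusted p = 0.000771) at 25 dpp and 1.13 ± 0.16 (edgeR adjusted p = 0.00758) at 19 dpp.

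The KO libraries lay wholly above the WT libraries for 7 of 8 members at 25 dpp, where 38.5% of all tested genes lay wholly above and 46.1% wholly below, and for 8 of 8 at 19 dpp, where 32.7% lay above and 33.8% below. Over the members the median log2 fold change was 1.29 at 25 dpp, against -0.12 over all tested genes, and 0.95 at 19 dpp, against 0 over all tested genes. Without KO replicate 1 at 19 dpp, edgeR called 0 of 23353 genes, the 8 members included, with the lone KO library assumed to vary like the other groups. Of the genes, 5298 then had an unadjusted p under 0.05, 6 of the members among them. The members' values were then between 0.51 for Lum and 1.02 for Vim, with a median of 0.78, and Pdgfra was at 0.95 and Dcn at 0.80. Without WT replicate 2 at 19 dpp 3 members were called. DESeq2 was not run without that library; on all libraries its Wald test called 7 members higher at 19 dpp.

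Set against the Sertoli cells instead of the whole RNA, the KO effect was not called higher for any of the 8. With the libraries scaled by the summed Sertoli markers, which moves the median of all tested genes to -1.53 at 25 dpp and -0.79 at 19 dpp, 0 of 8 members were called higher at either age in edgeR. Of all tested genes, 1.15% were called higher and 69.2% lower at 25 dpp under this scaling, and 0.394% higher and 40.9% lower at 19 dpp. The values of 4 of 8 members at 25 dpp and 5 of 8 at 19 dpp were above 0. At 25 dpp 2 members were then called lower in KO, Lum at -2.24 (edgeR adjusted p = 0.00183) and Nr2f2 at -0.65 (edgeR adjusted p = 0.0362), and 2 had an unadjusted p under 0.05. At 19 dpp no member was called in either direction under this scaling and none had an unadjusted p under 0.05. DESeq2 was run on its own size factors only, where it called 7 members higher at each age.

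In single libraries the order of the genotypes differed between the members. Per 1000 Sertoli marker counts, Pdgfra had 17.8 and 17.8 counts in KO and 18.0 and 15.9 in WT at 25 dpp, and 25.6 and 26.2 in KO and 21.5 and 24.2 in WT at 19 dpp. Ptch1 had 9.38 and 12.9 in KO and 11.4 and 10.5 in WT at 25 dpp. Lum had 0.167 and 0.151 in KO and 0.867 and 0.646 in WT at 25 dpp. The Pdgfra and Ptch1 groups overlapped at 25 dpp, and those of Lum did not. Nr2f2, with 2.26 and 3.46 in KO and 4.65 and 4.34 in WT at 25 dpp, also kept its libraries apart, and at 19 dpp it had 4.83 and 4.75 in KO and 4.99 and 5.67 in WT. Dcn had 26.6 and 32.1 in KO and 21.9 and 25.6 in WT at 25 dpp, and Vim 35.6 and 34.5 in KO and 41.7 and 41.0 in WT. At 19 dpp Vim had 54.8 and 52.8 in KO and 43.2 and 44.4 in WT. At 25 dpp the KO libraries lay wholly above those of WT for 1 member, Dcn, and wholly below for 4 (Lum, Tcf21, Nr2f2 and Vim), where 5.06% of all tested genes lay above and 82.7% below. At 19 dpp they lay wholly above for 3 (Pdgfra, Gli1 and Vim) and wholly below for 1, Nr2f2, where 5.22% of all tested genes lay above and 67.5% below. These orders rest on a sum in which Clu, the most abundant marker, had a larger part in KO than in WT at 25 dpp. Whether they hold without Clu was not tested. The geometric mean of the same 26 markers was 162 and 165.2 CPM in KO and 62.37 and 77.8 CPM in WT at 25 dpp. It ordered the 2 KO libraries the other way than the sum did, which was 11500 and 9866 CPM. The orders of the members can therefore differ with the yardstick, and they are given for the sum only.

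**Figure D2:**
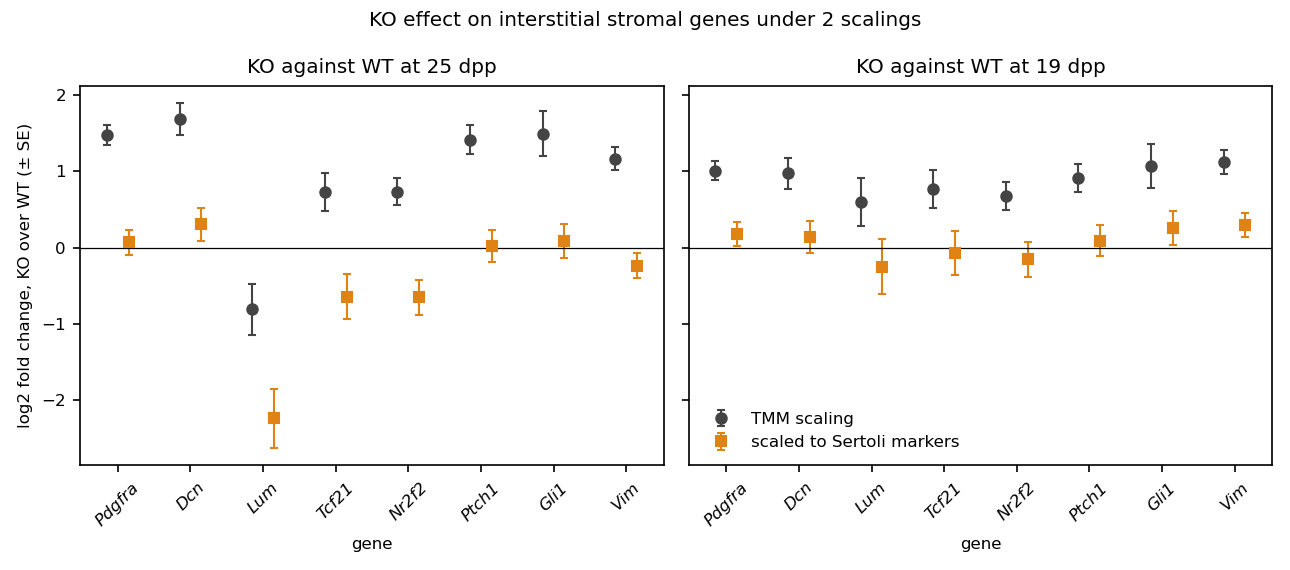
Log2 fold change of KO over WT with its SE for the 8 genes, at 25 dpp on the left and 19 dpp on the right; grey circles are scaled by TMM and orange squares by the summed Sertoli markers. The orange values lie near 0 for most members, and Lum at 25 dpp lies at -2.24.

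Scaling to the other somatic cells gave another picture. With the geometric mean of the Leydig, peritubular myoid and endothelial markers, 7 of 8 members were called higher in KO at 25 dpp, against 32.7% of all tested genes. The median log2 fold change was 1.84 over the members and 0.41 over all tested genes. At 19 dpp 0 of 8 were called, and none had an unadjusted p under 0.05, while 0.227% of all tested genes were called higher. The median was then 0.10 over the members and -0.79 over all tested genes. The Leydig marker sum was 406 to 436 CPM in KO and 624 to 822 CPM in WT at 25 dpp, and 1174 to 1204 CPM in KO and 399 to 869 CPM in WT at 19 dpp, so the Leydig part of this yardstick was lower in KO at 25 dpp and higher at 19 dpp. Peritubular myoid markers summed to 784 to 879 CPM in KO and 649 to 718 CPM in WT at 25 dpp.

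The stromal genes had a smaller share of the RNA at 25 than at 19 dpp in both genotypes. In KO testis 7 of 8 members were called lower at 25 than at 19 dpp, while 8.87% of all tested genes were called lower, 10.2% higher and 19.1% in either direction, with a median log2 fold change of -1.02. Scaling to Leydig, myoid and endothelial markers turned this median to 0.36, with 1 member called higher and 1 lower, while 61.6% of all tested genes were called higher and 0.732% lower. Sertoli scaling left 2 members called lower, while 2.81% of all tested genes were. In WT testis all 8 were called lower at 25 dpp, while 25.4% of all tested genes were called lower, 34.9% higher and 60.3% in either direction, with a median of -1.29, and 2 were called lower with Sertoli scaling, as were 2.01% of all tested genes. All 8 members had their 25 dpp libraries wholly below those at 19 dpp in each genotype, which held for 32.2% of all tested genes in KO (33.3% lay wholly above) and 40.3% in WT (43.4% above). Of all genes called, 53.4% were higher at 25 dpp in KO, against 74.3% with Sertoli and 98.8% with Leydig, myoid and endothelial markers, and 57.9% in WT, against 39.3% with total counts, 96.2% with Sertoli and 68.3% with the other markers. The comparisons share libraries with each other and with those of KO against WT, so they are not independent. Markers of other somatic cells were also called lower at 25 dpp. In KO this held for 8 of 26 Sertoli, 9 of 13 myoid and 9 of 15 endothelial markers. It also held for 4 of 8 pericyte, 6 of 16 Leydig and 5 of 14 macrophage markers. The WT counts were 22, 9, 7, 6, 3 and 0 in the same order. Of these markers 1 Leydig was called higher in KO, and 2 Leydig, 2 myoid and 1 endothelial were in WT. Over the same ages the spermatocyte markers were called higher for 11 of 12 in KO and 7 of 12 in WT, and the part of this in the members' values was not tested.

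Lum had the steepest age difference in KO. It had 1.92 and 1.49 CPM at 25 dpp and 11.7 and 10.3 CPM at 19 dpp in KO, a log2 fold change of -2.68 ± 0.35 (edgeR adjusted p = 0.00754). In WT it was -1.27 ± 0.33 (edgeR adjusted p = 0.012), and without WT replicate 2 at 19 dpp it was -0.81 and no longer called (edgeR adjusted p = 0.0732). Dcn, its neighbour, was the one member not called in KO, at -0.24 ± 0.20 (-0.80 to 0.33, edgeR adjusted p = 0.455), while it was called lower in WT at -0.95 ± 0.21 (edgeR adjusted p = 0.00589).

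The other members had age differences in KO between -0.84 for Pdgfra and -1.43 for Tcf21, and in WT between -0.96 for Vim and -1.81 for Gli1. Tcf21 had close values in KO (-1.43) and WT (-1.39), and so had Nr2f2 (-1.06 in KO and -1.12 in WT). Without KO replicate 1 at 19 dpp, 17 of all tested genes were called in KO and 0 of 8 members, of which 7 had an unadjusted p under 0.05. The members' values in KO were then between -0.06 for Dcn and -2.59 for Lum, with a median of -0.90, and Pdgfra was at -0.78 and Tcf21 at -1.23. Without KO replicate 2 at 25 dpp 2 members were called, and without KO replicate 1 at 25 dpp 4 were.

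Whether the KO effect changed with age was tested directly as the difference of the KO effects, 25 minus 19 dpp. None of the 8 members was called (edgeR), while 7.68% of all tested genes were called above 0, 11.4% below 0 and 19.1% in either direction. The share above 0 among those called was 40.2%, against 73.8% with total counts, 6.18% with Sertoli and 88.9% with Leydig, myoid and endothelial markers. Lum had the lowest adjusted p at 0.0704, with a difference of -1.41 ± 0.47 (-2.70 to -0.12), and 3 members had an unadjusted p under 0.05. DESeq2's Wald test called 1 member, Lum, with an adjusted p of 0.0101. Dcn had a difference of 0.71 ± 0.29 (edgeR adjusted p = 0.121) and Pdgfra one of 0.47 ± 0.18 (edgeR adjusted p = 0.101). For Tcf21, Nr2f2 and Vim the differences were -0.04, 0.06 and 0.04, with intervals from -1.01 to 0.94, -0.64 to 0.76 and -0.57 to 0.65. Without WT replicate 2 at 19 dpp Lum was called, at -1.87 (edgeR adjusted p = 0.0296).

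Ratios of counts within a library do not depend on scaling. The ratio of Dcn to Lum counts was 159 and 212 in KO and 25.2 and 39.6 in WT at 25 dpp. At 19 dpp it was 35.2 and 31.5 in KO and 32.3 and 21.95 in WT. The KO libraries at 25 dpp thus stood apart from the other 6, all of which lay under 40 by this ratio. The ratio of Lum to Pdgfra showed the same order, with 0.00940 and 0.00852 in KO and 0.0482 and 0.0406 in WT at 25 dpp, and 0.0331 and 0.0316 in KO and 0.0315 and 0.0544 in WT at 19 dpp. Other members were also wholly lower in KO per count of Pdgfra at 25 dpp. Nr2f2 had 0.127 and 0.195 in KO and 0.259 and 0.2725 in WT. Tcf21 had 0.0886 and 0.158 in KO and 0.189 and 0.216 in WT. For Vim the values were 2.01 and 1.94 in KO and 2.32 and 2.57 in WT. Dcn, Ptch1 and Gli1 overlapped between the genotypes. Nr2f2 and Tcf21 were wholly lower in KO at 19 dpp too, and Vim wholly higher. How many pairs of genes separate in this way was not counted.

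Ratios were also taken for Ptch1 and Gli1, the Hedgehog targets. Ptch1 counts per count of Pdgfra were 0.528 and 0.728 in KO and 0.635 and 0.659 in WT at 25 dpp, with overlapping groups. Per count of Dhh, the ligand, Ptch1 had 1.15 and 1.10 in KO and 0.904 and 0.812 in WT at 25 dpp, and 1.07 and 1.05 in KO and 1.345 and 1.25 in WT at 19 dpp. The KO libraries were the higher ones at 25 dpp and the lower ones at 19 dpp. Gli1 per count of Dhh was 0.260 and 0.136 in KO and 0.127 and 0.147 in WT at 25 dpp, where the groups overlapped.

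**Figure D3:**
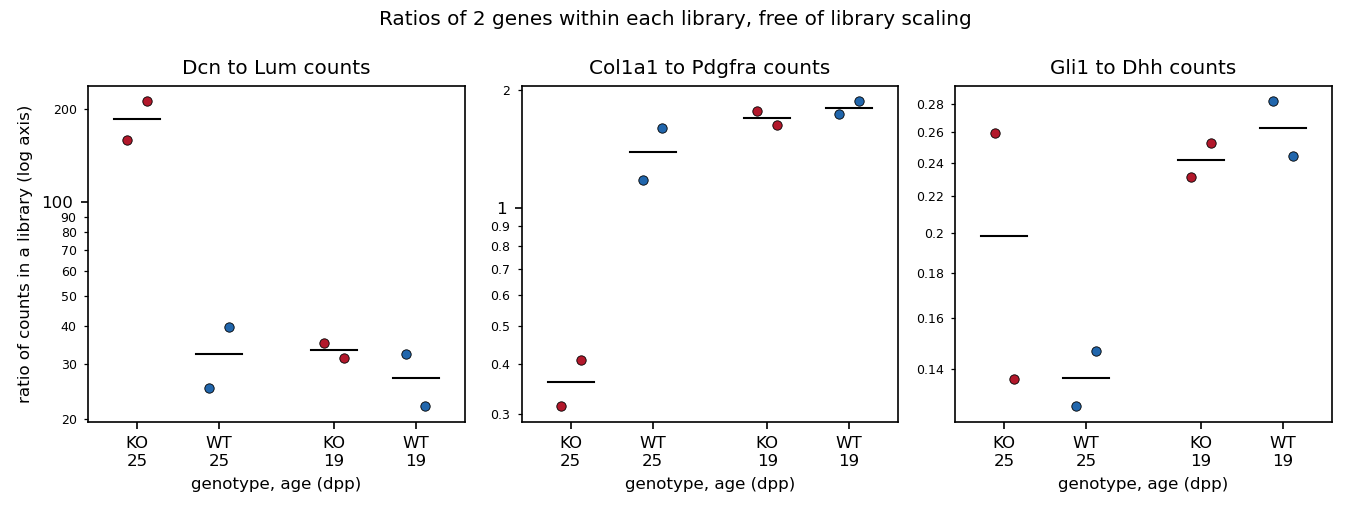
Ratios of the counts of 2 genes within each library (log axes), KO in red and WT in blue, at 25 and 19 dpp, with the mean of each group as a bar. Dcn to Lum is above 150 in both KO libraries at 25 dpp and under 40 elsewhere, Col1a1 to Pdgfra is under 0.5 in those 2 libraries and above 1 elsewhere, and Gli1 to Dhh overlaps between the genotypes at 25 dpp.

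Per length of exon, the members kept nearly one order in all groups. In RPKM (CPM per kilobase of exon), Vim led with 79.1 ± 10.3 in KO and 35.15 ± 5.10 in WT at 25 dpp (SD, n = 2 each), followed by Dcn with 53.3 ± 1.3 in KO and 16.55 ± 4.39 in WT, and Pdgfra with 18.9 ± 2.1 in KO and 6.78 ± 0.49 in WT. Tcf21 came next with 9.73 ± 2.87 RPKM in KO and 5.87 ± 0.97 RPKM in WT, above Ptch1 with 8.29 ± 0.98 in KO and 3.10 ± 0.30 in WT. The ranges of Tcf21 and Ptch1 overlapped in KO at 25 dpp, and those of Pdgfra and Tcf21 in WT. Gli1 had 4.02 ± 1.19 RPKM in KO and 1.43 ± 0.39 in WT, and Nr2f2 3.49 ± 0.67 in KO and 2.10 ± 0.23 in WT, so these 2 changed places between the genotypes, with overlapping ranges in KO, while in WT Gli1 overlapped Lum. Lum was last in every group, with 0.697 ± 0.124 RPKM in KO and 1.23 ± 0.06 in WT.

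At 19 dpp the same 8 places were taken in both genotypes. Vim had 148.6 ± 14.3 RPKM in KO and 68.1 ± 3.6 in WT, Dcn 62.9 ± 10.3 in KO and 31.9 ± 3.9 in WT, and Lum 4.49 ± 0.39 in KO and 2.96 ± 1.14 in WT. In KO no neighbours in the order overlapped, and in WT Gli1 and Nr2f2 did.

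Other genes of the Hedgehog pathway were more often called higher than lower in KO, but not under Sertoli scaling. Without Ptch1 and Gli1 the list held 13 tested genes. Dhh, which is among them, is also part of the Sertoli sum used as scaling. Of these, 7 were called higher and 1 lower in KO at 25 dpp (median log2 fold change 1.02), against 26.1% and 37.4% of all tested genes. At 19 dpp 4 were higher and 0 lower (median 0.65), against 8.8% and 13.2%. Under Sertoli scaling 0 were higher and 5 lower at 25 dpp (median -0.36), against 1.15% and 69.2% of all tested genes. At 19 dpp 0 were then higher and 1 lower (median -0.18), against 0.394% and 40.9%. Dhh, the Sertoli ligand, had 93.6 and 116 CPM in KO and 45.3 and 58.0 CPM in WT at 25 dpp, a log2 fold change of 1.02 ± 0.19 (edgeR adjusted p = 0.00282), and 1.21 ± 0.19 (edgeR adjusted p = 0.00885) at 19 dpp. Smo, the signal transducer, was higher at both ages, by 1.17 at 25 dpp and 1.06 at 19 dpp, but lost the call at 19 dpp in 3 of the 8 fits that leave out 1 library (edgeR adjusted p 0.0834 to 0.173). Gli2 and Gli3, the other GLI factors, were called higher at 25 dpp, at 1.16 and 1.42, and not at 19 dpp, at 0.28 and 0.14, but the difference between the ages was not called for either (edgeR adjusted p = 0.0957 for Gli2 and 0.0562 for Gli3). Hhip, which binds and holds back Hedgehog ligands, was called at 25 dpp at 1.23 (edgeR adjusted p = 0.0357), and lost the call when any of the 4 libraries at that age was left out. Sufu, which restrains GLI factors, was the one gene of the list called lower in KO at 25 dpp, at -1.44 ± 0.31 (edgeR adjusted p = 0.00532), with 29.2 and 31.4 CPM in KO and 111 and 53.0 CPM in WT. Without WT replicate 1 at 25 dpp Sufu was at -0.73.

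Of the 6 other PDGF genes, 2 were called higher and 2 lower in KO at 25 dpp, against 26.1% and 37.4% of all tested genes. At 19 dpp 2 were higher and 0 lower, against 8.8% and 13.2%. Sertoli scaling gave 0 higher and 3 lower at 25 dpp, against 1.15% and 69.2% of all tested genes. It gave none in either direction at 19 dpp, against 0.394% higher and 40.9% lower. The PDGF counts at 25 dpp were 1 higher and 1 lower without WT replicate 1 or KO replicate 1, and at 19 dpp 0 were called without WT replicate 2 or either KO replicate. Pdgfc, a ligand of PDGFRA, had 42.2 and 37.6 CPM in KO and 10.9 and 10.3 CPM in WT at 25 dpp, and its log2 fold change was 1.91 ± 0.22 (edgeR adjusted p = 0.000468) at 25 dpp and 0.91 ± 0.21 (edgeR adjusted p = 0.0232) at 19 dpp, where 3 of the 8 fits without 1 library lost the call (edgeR adjusted p 0.0637 to 0.159). Pdgfa, the ligand that mouse Leydig cells need for their development, had 9.63 and 11.5 CPM in KO and 25.1 and 23.9 CPM in WT at 25 dpp, a log2 fold change of -1.21 ± 0.20 (edgeR adjusted p = 0.0016). At 19 dpp it was at 0.29 and not called, and the difference between the ages was -1.51 ± 0.28 (edgeR adjusted p = 0.0137). That difference was not called in every other setting run. Pdgfd was also lower in KO at 25 dpp, at -1.15, though it lost the call without WT replicate 1 (edgeR adjusted p = 0.0554) or KO replicate 1 (0.0624). Pdgfrb, the receptor of pericytes and myoid cells, was at 1.32 in KO over WT at 25 dpp (edgeR adjusted p = 0.0186) and lost the call without KO replicate 1, where it was at 0.68, or WT replicate 1, where it was at 1.23. Pdgfb was called at neither age.

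**Figure D4:**
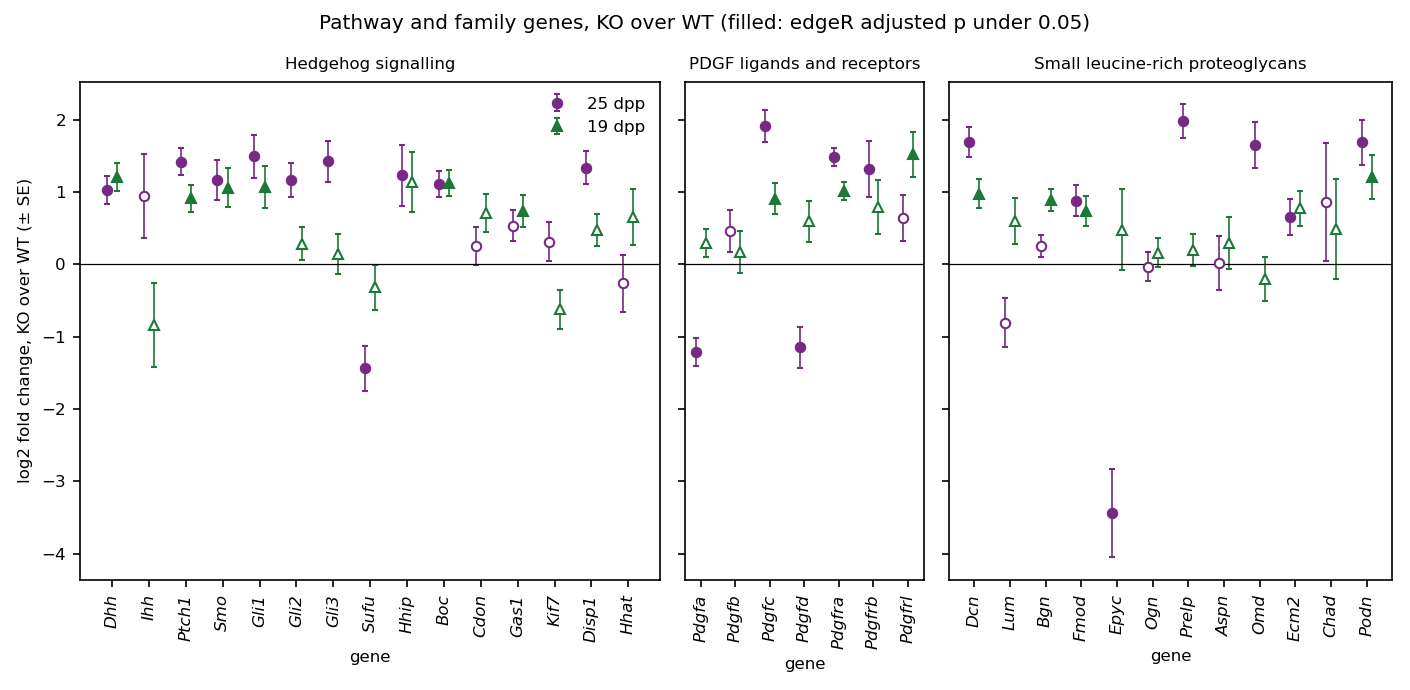
Log2 fold change of KO over WT with its SE for tested genes of the Hedgehog pathway, the PDGF family and the small leucine-rich proteoglycans, members included, at 25 dpp (purple circles) and 19 dpp (green triangles); filled points were called by edgeR. Epyc lies at -3.44 and Pdgfa at -1.21 at 25 dpp, both below their values at 19 dpp.

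Among the 10 other small leucine-rich proteoglycans tested, 5 were called higher and 1 lower in KO at 25 dpp, against 26.1% and 37.4% of all tested genes. At 19 dpp 3 were higher and 0 lower, against 8.8% and 13.2%. With Sertoli scaling 0 were higher and 6 lower at 25 dpp, against 1.15% and 69.2% of all tested genes. None was then called at 19 dpp, against 0.394% higher and 40.9% lower. Kera, which lies next to Lum, had no more than 0.0818 CPM in any library and was not tested. Prelp, a proteoglycan of basement membranes, had 47.0 and 60.7 CPM in KO and 11.9 and 15.3 CPM in WT at 25 dpp, a log2 fold change of 1.98 ± 0.23 (edgeR adjusted p = 0.000517), and 0.20 at 19 dpp, with a difference between the ages of 1.78 ± 0.32 (edgeR adjusted p = 0.0125). With Sertoli scaling the difference for Prelp was 1.21 and not called (edgeR adjusted p = 0.0697). Epyc had 1.98 and 3.41 CPM in KO and 34.5 and 23.7 CPM in WT at 25 dpp, a log2 fold change of -3.44 ± 0.61 (edgeR adjusted p = 0.00261). Bgn, the closest relative of Dcn in the family, was at 0.25 at 25 dpp, not called, and at 0.89 ± 0.15 (edgeR adjusted p = 0.0102) at 19 dpp. Fmod was at 0.88 at 25 dpp and 0.74 at 19 dpp, called at both ages, but at 19 dpp it lost the call in 6 of the 8 fits without 1 library (edgeR adjusted p 0.0588 to 0.202). Ogn was called at neither age, at -0.04 and 0.16.

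Most collagen and other matrix genes of the stroma were called lower at 25 than at 19 dpp in both genotypes. Of 24 other stromal matrix genes, 19 were called lower at 25 than at 19 dpp in KO on TMM scaling, against 8.87% of all tested genes. Their median log2 fold change was -2.18. In WT 18 were called lower, against 25.4%, with a median of -1.28, and none was called higher in either genotype. Among those not called, Fbln1 was at 0.44 and Fn1 at 0.04 in KO, and Mfap5 at 0.19 in WT. Col1a1, a chain of type I collagen, had 63.9 and 71.7 CPM in KO and 76.1 and 114 CPM in WT at 25 dpp, and 622 and 532 CPM in KO and 290.4 and 318 CPM in WT at 19 dpp. The KO libraries were highest at 19 dpp and lowest at 25 dpp, and the difference of the KO effects was -1.41 ± 0.28 (edgeR adjusted p = 0.0161). Col1a2 (-1.02), Col3a1 (-1.79) and Cd34 (-1.66), a surface protein of stromal and endothelial cells, were also called in this difference. None of these calls, nor that of Col1a1, held in every scaling, filter and test run. Of all tested genes, 11.4% were called below 0 and 7.68% above 0 in this difference. In all, 11 of the 24 had a called difference below 0 and 2 above 0, and leaving out 1 library gave 4 to 9 below 0, the fewest without KO replicate 1 at 19 dpp or KO replicate 1 at 25 dpp.

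By KO over WT, 15 of the 24 matrix genes were called higher and 0 lower at 19 dpp, against 8.8% and 13.2% of all tested genes. At 25 dpp 5 were higher and 7 lower, against 26.1% and 37.4%. Under Sertoli scaling 0 were higher and 20 lower at 25 dpp, where 69.2% of all tested genes were called lower, and 0 higher and 2 lower at 19 dpp, where 40.9% were. Without KO replicate 1 at 19 dpp, when no gene of all tested was called at that age, none of these genes, nor of the Hedgehog, proteoglycan, progenitor and filament lists, was called, and 7 matrix genes were called lower with age in KO. The ratio of Col1a1 to Pdgfra counts, free of scaling, was 0.313 and 0.4095 in KO and 1.18 and 1.60 in WT at 25 dpp, and 1.77 and 1.63 in KO and 1.74 and 1.87 in WT at 19 dpp. The ratio of Col1a1 to Dcn was 0.209 and 0.227 in KO and 0.969 and 0.995 in WT at 25 dpp, and 1.52 and 1.64 in KO and 1.71 and 1.57 in WT at 19 dpp. The 2 KO libraries at 25 dpp lay below all others in both ratios. Igf1, a growth factor secreted by stroma, was called higher in KO at 19 dpp at 0.88 and was at 0.54, not called, at 25 dpp. Igf1, Col1a1 and Col1a2 each lost the call at 19 dpp in 3 of the 8 fits without 1 library.

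Of 10 other interstitial progenitor factors, 9 were called higher in KO at 25 dpp, against 26.1% of all tested genes. At 19 dpp 5 were, against 8.8%, and none was called lower at either age. With Sertoli scaling 0 were higher and 2 lower at 25 dpp, against 1.15% and 69.2% of all tested genes. At 19 dpp 0 were then higher and 3 lower, against 0.394% and 40.9%. Several of them, such as Wt1 and Nr5a1, also stand in the Sertoli or Leydig list. Tcf12, a partner of basic helix-loop-helix factors such as TCF21, had 134 and 135 CPM in KO and 48.0 and 59.8 CPM in WT at 25 dpp, a log2 fold change of 1.32 ± 0.17 (edgeR adjusted p = 0.000658), and 0.29 at 19 dpp, and the difference was 1.03 ± 0.24 (edgeR adjusted p = 0.0248). With Sertoli scaling this difference was 0.45 and not called (edgeR adjusted p = 0.254). Lhx9 was called at neither age. Of the other NR2F receptors, Nr2f6 was at 1.12 at 25 dpp (edgeR adjusted p = 0.00336) and 0.26 at 19 dpp, and Nr2f1 stayed under 0.5 CPM in every library.

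The 9 other intermediate filament genes had no common direction. At 25 dpp 2 were called higher and 2 lower in KO, against 26.1% and 37.4% of all tested genes. At 19 dpp 2 were called higher, against 8.8%. Without KO replicate 1 at 25 dpp 0 were called higher at that age. Des, the filament of muscle and myoid cells, was called at 19 dpp at 0.83, a call lost in 4 of the 8 fits without 1 library, and was at 0.04 at 25 dpp. Des is also in the myoid list that forms part of the scaling to Leydig, myoid and endothelial markers. Nes, found in progenitor and pericyte cells, was called at 25 dpp at 1.01 (edgeR adjusted p = 0.0094) and was at 0.56 at 19 dpp. Krt18, an epithelial keratin, had between 0.409 and 3.19 CPM and was not called. With Sertoli scaling 7 of the 9 were called lower in KO at 25 dpp, against 69.2% of all tested genes, and 2 at 19 dpp, against 40.9%.

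Across the 8 libraries the lowest correlation between members was that of Dcn with Lum. Pearson's r of log2(CPM + 0.5) over the 28 pairs ran from 0.274 for Dcn with Lum to 0.992 for Tcf21 with Nr2f2, with a median of 0.913. With Lum it was highest for Tcf21, at 0.789, and the lowest pair without Lum was Dcn with Tcf21, at 0.748. These points share the libraries and their scaling, and the 4 groups set most of the spread. Among 11240 other genes with at least 8 CPM on average, the profiles most like the mean of the 8 members were those of Mylk (r = 0.999), Rbms3 (r = 0.998), Plagl1 (r = 0.997), Rreb1 (r = 0.996), Nfic (r = 0.996) and Tfpi (r = 0.995). Mylk, a kinase of smooth muscle that is also in the myoid list, had 199 and 199 CPM in KO and 118 and 132 CPM in WT at 25 dpp, and 340.2 and 305 CPM in KO and 211 and 219.7 CPM in WT at 19 dpp.

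For single members the nearest profiles were Il15ra (r = 0.996) and Slc18b1 for Pdgfra, Id3 (r = 0.997) and Helz for Dcn, Bcam (r = 0.995) and Gatsl3 for Tcf21, and Pip4k2a (r = 0.995) and Acaa1a for Nr2f2. Ptch1 was nearest to Mbtps1 (r = 0.998) and Igsf9b, Gli1 to Rab34 (r = 0.998) and Iffo2, and Vim to Slc7a2 (r = 0.998) and Etnk2. Lum was nearest to Lpl (r = 0.988) and to Mfap4 (r = 0.983). Lpl had 3.25 and 3.34 CPM in KO and 4.86 and 4.74 CPM in WT at 25 dpp, and 25.5 and 17.6 CPM in KO and 9.93 and 19.8 CPM in WT at 19 dpp. As for Lum, the KO libraries of Lpl were the lower ones at 25 dpp, and at 19 dpp the genotypes overlapped for Lpl.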

How the data were processed

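Whole testis RNA of 8 libraries was read from the deposited files, 1 per library. The authors used mm10, STAR 2.7.0a and featureCounts 1.5.1, per the submitters' processing notes. What was deposited are whole-number counts per gene, not normalized. Per the labels, a stranded mRNA kit was used. The strand setting and the annotation of the counting are not given in the sources used here. Each file held 55292 entries, of which 1205 repeat families were left out of totals and tests.

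From these counts, edgeR 4.0.16 (R 4.3.3) fitted 1 mean per group by robust quasi-likelihood with 4 residual degrees of freedom, on TMM library sizes and genes kept by filterByExpr. In the 5 comparisons p-values were adjusted by Benjamini-Hochberg over all 23353 tested genes, with a threshold of 0.05. SEs were derived from each log2 fold change and its F statistic. Alternatives changed the scaling, filter, test (DESeq2 1.42.0, limma 3.58.1), replicate block and libraries. Intervals have a level of 95% and cover the spread between these libraries only. RPKM used GENCODE M21 exon lengths (GRCm38, the assembly of mm10), which also gave the 1-based coordinates.

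The fit was tested on simulated data. At 19 dpp the share of false calls was above the nominal rate in every simulated draw. A first draw with gene-wise spreads failed the limit set for that share, after which the limit was applied only to draws with trended spreads, so the calls at 19 dpp may hold more false ones than the threshold states.

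Named are all members, Dnmt3a, partners given by name for each pathway list, and by rule the 6 genes most like the members' mean and the 2 most like each member, by Pearson's r; of the 2 most abundant markers of each cell type, only Clu is given. Some genes of these lists are not reported here. The members and lists were chosen with earlier results of these data known.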

Additional observations from a re-analysis of the deposited data

Results flagged for a closer look

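In 9 partner genes the KO effect differed between the ages by the direct test in edgeR, with these differences of log2 fold changes, 25 minus 19 dpp: Pdgfa -1.51, Pdgfd -1.74, Epyc -3.92, Col1a1 -1.41, Col1a2 -1.02, Col3a1 -1.79 and Cd34 -1.66 were below 0, and Prelp at 1.78 and Tcf12 at 1.03 were above it. Of all tested genes 19.1% were called in this comparison. Only Epyc kept its call under every other scaling, filter and test on all 8 libraries (highest edgeR adjusted p = 0.0325, Sertoli scaling). The highest adjusted p over these settings was 0.0697 for Prelp, 0.254 for Tcf12, 0.433 for Col3a1 and 0.538 for Col1a2. For Cd34 it was 0.546, for Pdgfd 0.604, for Pdgfa 0.855 and for Col1a1 0.999. Of the 8 fits that leave out 1 library, 6 lost the call for Cd34 (adjusted p 0.0521 to 0.142), Col1a2 (0.0528 to 0.098), Pdgfd (0.0547 to 0.096) and Tcf12 (0.0563 to 0.0887). The call was lost in 4 for Epyc, in 2 for Col1a1, Col3a1 and Pdgfa, and in 1 for Prelp.

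Lum was singled out because both KO libraries lay below both WT libraries at 25 dpp and above them at 19 dpp, with a difference of -1.41 that was not called (edgeR adjusted p = 0.0704). The depth behind it is low, with 42 to 363 counts per library.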

How the results depend on the processing

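Members called, at 6 higher (19 dpp), 7 higher (25 dpp), 7 lower (age in KO), 8 lower (age in WT) and 0 (difference of the KO effects), changed with scaling. Sertoli markers gave 0 at 19 dpp and 0 higher and 2 lower at 25 dpp, where 69.2% of all tested genes were called lower. They gave 2 lower with age in each genotype, against 2.81% of all tested genes in KO and 2.01% in WT. Leydig, myoid and endothelial markers gave 0 at 19 dpp, 1 higher and 1 lower for age in KO, and 7 above 0 for the difference. For the difference, total counts gave 3 above 0, no filter 1 above 0 and DESeq2 1 below 0. The counts over all genes, at 5145, 14840, 4451, 14079 and 4464, became 9652 (19 dpp), 2557 (age in KO) and 2944 (difference) with Sertoli markers, 7800, 14547 and 11299 with the other markers, 7830, 7318 and 7884 with DESeq2, 6806 for age in KO with only the libraries compared, and 7515 for the difference with total counts. The cause was not tested.

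Leaving out 1 library in turn, members called ranged over 0 to 7, 5 to 8, 0 to 7, 7 to 8 and 0 to 1, and genes called over 0 to 5685, 11485 to 14726, 17 to 4993, 10460 to 13543 and 1209 to 5571. The fewest genes at 19 dpp, for age in KO and for the difference came without KO 19 dpp replicate 1. Between groups, the deviations of same-numbered libraries from their group means correlated at -0.088 to 0.361. The highest was for WT 19 dpp with KO 25 dpp, and the next was 0.0483. These values do not show whether the replicate numbers pair the samples or mark a batch. With the replicate number as a block 6, 7, 7, 8 and 0 members were called. 

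With Sertoli markers these values changed sign. In KO against WT at 19 dpp Lum was at -0.25, Tcf21 at -0.073, Nr2f2 at -0.15, Fmod at -0.081, Des at -0.0078 and Col1a2 at -0.12. At 25 dpp Tcf21 was at -0.64, Nr2f2 at -0.65, Vim at -0.24, Dhh at -0.36, Smo at -0.24, Gli2 at -0.24, Hhip at -0.15, Pdgfrb at -0.12, Fmod at -0.51, Nr2f6 at -0.29, Tcf12 at -0.076 and Nes at -0.38. For age, Dcn was at 0.070 in KO, and Dhh at 0.0021, Ogn at 0.078 and Nr2f6 at 0.010 in WT. For the difference, Pdgfra was at -0.11, Nr2f2 at -0.50, Ptch1 at -0.067, Gli1 at -0.17 and Vim at -0.53.

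With Leydig, myoid and endothelial markers Lum was at -0.14, Tcf21 at -0.050, Nr2f2 at -0.16, Fmod at -0.13 and Col1a2 at -0.15 at 19 dpp. For age in KO, Pdgfra was at 0.58, Dcn at 1.16, Nr2f2 at 0.32, Ptch1 at 0.41, Gli1 at 0.051, Vim at 0.51, Dhh at 0.32, Smo at 0.067, Pdgfd at 0.18, Fmod at 0.044, Ogn at 0.39 and Des at 0.25. For the difference, Tcf21 was at 1.29 and Col1a2 at 0.38.

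The differences of the KO effects near 0 changed sign under other settings too. Tcf21 was at 0.49 with total counts and 0.057 with no filter, and Nr2f2 was at -0.040 and Vim at -0.045 with DESeq2 size factors, and Nr2f2 at -0.040 and Vim at -0.044 with its Wald test. Leaving out 1 library, they ranged from -0.37 to 0.24 for Tcf21, -0.15 to 0.24 for Nr2f2 and -0.095 to 0.20 for Vim. In the other settings run, no other value of a member changed sign, nor did any partner value that was called as reported; partner values that were not called were not rerun. Lum has the fewest counts and the least precision.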
